A study of Homo sapiens with 12 samples.

Results

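The 28 genes described here encode carriers that move amino acids and closely related molecules across cell membranes. The rule took symbols alone, as every gene of the deposited table named SLC1A, SLC3A, SLC6A, SLC7A, SLC36A, SLC38A or SLC43A followed by digits, among 12616 genes tested. Of 30 symbols that begin this way, SLC38A9, a lysosomal sensor of amino acids, and SLC7A6OS, a gene on the strand opposite SLC7A6 that is no carrier, were set apart. The families contribute 3 genes of SLC1, 1 of SLC3, 8 of SLC7, 5 of SLC6, 2 of SLC36, 6 of SLC38 and 3 of SLC43. GENCODE release 44 names 58 protein-coding genes with such symbols, and the other 30 are not analysed here.

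The study used 2 lines derived from human melanomas, MeWo and SkMel28. Each carried a hairpin that doxycycline (Dox) switches on and that targets the mRNA of MITF, the transcription factor of the melanocyte lineage. Dox was given at 0 or 1 µg/ml over 8 days, which gives 4 groups of 3 libraries: MeWo control, MeWo Dox, SkMel28 control and SkMel28 Dox. Controls held the same uninduced hairpin and no cells had Dox without it, so the drug and the hairpin cannot be told apart. Labels put MeWo in EMEM and SkMel28 in RPMI, whereas the study's methods name RPMI for its human melanoma lines with 1 exception that is neither of these. If the labels hold, line and medium cannot be told apart either. The labels do not say whether the libraries of a group came from separate cultures, and p-values measure only the spread between these samples, which may be technical. RNA came from whole cultures, in which fewer cells carrying a transcript and less of it per cell cannot be told apart.

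Amino acid carriers differ in their cargo and in what drives them. Carriers of the SLC1, SLC6 and SLC38 families mostly use the sodium gradient, while SLC7 light chains are exchangers that pair with the glycoprotein SLC3A2 to reach the plasma membrane, apart from the cationic carriers, which work alone. Leucine and other large neutral amino acids enter through SLC7A5, arginine and lysine through SLC7A1, cystine through SLC7A11, and glutamine through SLC1A5 and SLC38A2. Supply of these amino acids feeds protein synthesis, glutathione production and mTORC1 signalling, and several of the carriers are known targets of ATF4, the transcription factor of the amino acid response.

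The libraries held 2568187 to 3714608 reads each, read from the 3′ ends of transcripts. Values are reads normalised per 1000000 reads, in which 1 read was worth 0.278 to 0.389, and a change is a difference of log2(value + 1). Its standard error (SE) is that of the limma fit, and it was called at an adjusted p under 0.05 over all genes. All 8 melanocyte lineage markers were listed, and their summed value was 13080 to 13280 in MeWo control and 6706 to 8414 in MeWo Dox, while the SkMel28 controls ran from 11490 to 12840 and the SkMel28 Dox libraries from 7657 to 8001. PMEL made up the largest share of this sum, with means of 7450 and 3261 in MeWo control and Dox. Not all 8 moved with it: DCT rose from 949.5 to 1790 in MeWo (adjusted p = 2.71e-05), and S100B rose from 62.9 to 248 there (adjusted p = 1.91e-09) and from 510.0 to 1123 in SkMel28 (adjusted p = 9.67e-07). None of the 4 keratinocyte, 3 endothelial and 4 immune markers was listed. MeWo Dox replicate 1 stood apart: its correlation across genes was 0.960 with replicate 2 and 0.969 with replicate 3, which correlated at 0.976 with each other, while pairs within the other groups reached 0.979 to 0.985. Several results that rest on this library are given with and without it. Rescaling the values to the spike-in RNAs moved the median change of all genes by 0.22 in MeWo and by -0.08 in SkMel28, and the carriers whose calls this ends are named below.

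MITF itself, the target of the hairpin, was read first. Its level was 657, 663 and 708 in the MeWo control libraries and 451, 354 and 371 with Dox, and 861, 739 and 792 in SkMel28 control against 575, 578 and 552 with Dox. In neither line did the 2 groups overlap. MITF fell by 0.79 (SE 0.11, adjusted p = 6.49e-05) on the log2 scale in MeWo and by 0.49 (SE 0.11, adjusted p = 0.00705) in SkMel28, that is, it fell by 42.0% and fell by 28.7% of the control mean, the second not called without a mean-variance trend. The difference between the lines was -0.31 (SE 0.15, adjusted p = 0.225), or -0.41 (adjusted p = 0.0169) without MeWo Dox replicate 1.

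In MeWo the carriers moved mainly downwards. With Dox, 10 of 28 were called (35.7%, against 16.7% of all genes), of which 9 were lower (32.1%, against 8.12% of all genes) and 1 was higher (3.57%, against 8.58%). Of the 9, SLC38A8 had to be lower, since only MeWo control carried it into the table. The median change over the 28 was -0.31, with 20 negative, beside 0 over all genes tested. In SkMel28, 7 of 28 were called (25%, against 10.9% of all genes), 4 lower (14.3%, against 5.04%) and 3 higher (10.7%, against 5.88%), and the median change was -0.02. SLC7A1, SLC7A5, SLC7A6 and SLC6A17 were lower in both lines, 4 of 28 (14.3%) beside 1.79% of all genes, and 0 of 28 were higher in both beside 1.91% of all genes. The ranges of Dox and control libraries did not overlap for 12 of 28 in MeWo (42.9%, against 28.8% of all genes). In SkMel28 this held for 16 of 28 (57.1%, against 32.3%). SLC38A8 is among the 12, and its separation was fixed by its entry through MeWo control alone. SLC7A4 is among the 16, although its lowest SkMel28 control value (0.317) and highest SkMel28 Dox value (0.297) each stand for 1 read. Only library scaling parted these values. Without MeWo Dox replicate 1, the MeWo count rose from 10 to 16, with 3 higher and 13 lower. The count over all 12616 genes rose with it, from 2107 to 3913. With spike-in scaling the MeWo count was 7, with 1 higher and 6 lower, beside 2478 of all genes. Under that scaling 4 uncalled MeWo changes of carriers changed sign. A fit of MeWo alone called 7, all lower, beside 813 of all genes. Without SkMel28 Dox replicate 2, the SkMel28 count fell from 7 to 4, with 2 higher and 2 lower, and that of all genes from 1378 to 784.

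**Figure D1:**
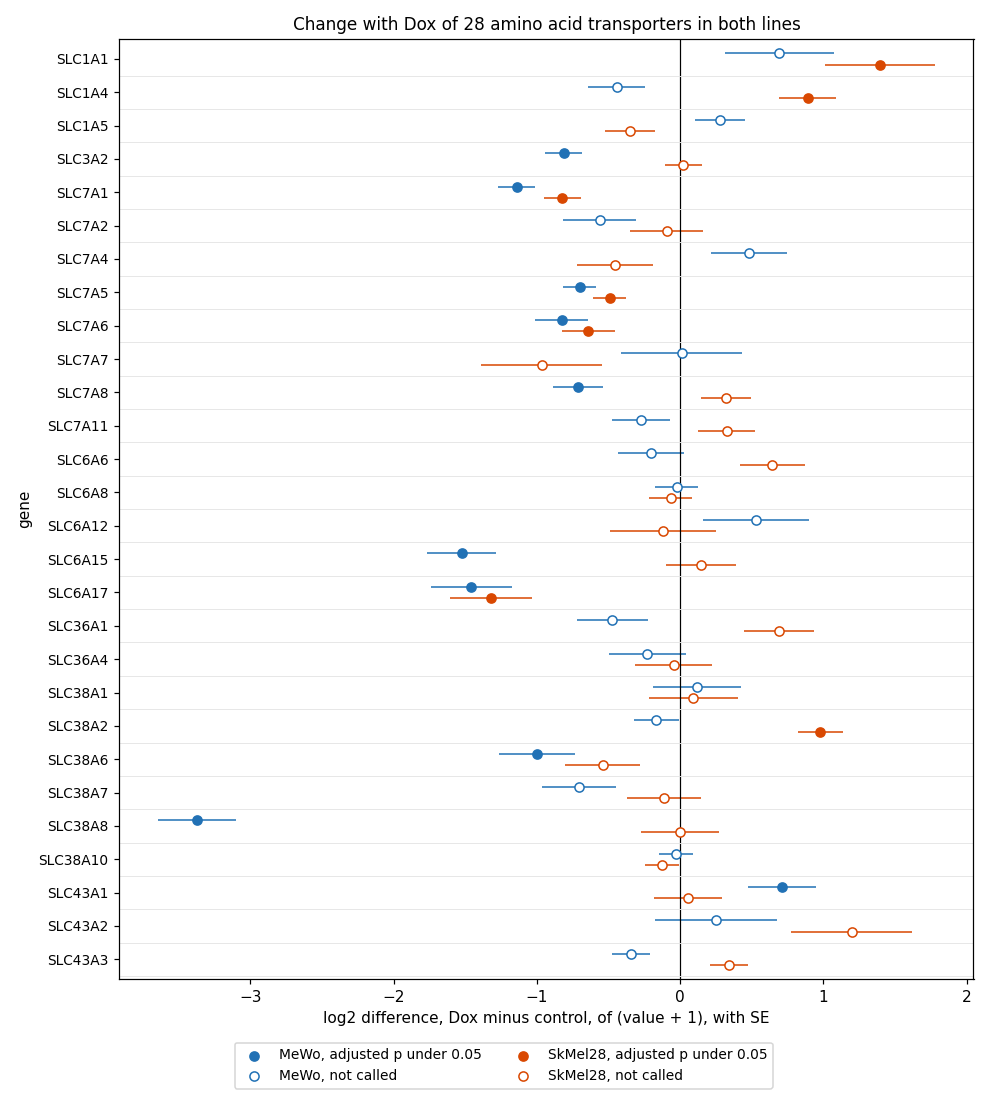
Change with Dox of each of the 28 carriers (rows), as the log2 difference of value + 1 with its SE, in MeWo (blue) and SkMel28 (orange), filled where called at an adjusted p under 0.05. In MeWo 9 filled points lie below 0 and 1 above, in SkMel28 4 below and 3 above.

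SLC3A2 is the heavy chain shared by the SLC7 exchangers, and it fell in MeWo. It was read at 207, 215 and 211 in the MeWo control libraries and at 149, 111 and 103 with Dox. In SkMel28 it was 133, 122 and 144 without and 137, 134 and 133 with Dox. Dox lay below control in all 3 MeWo libraries, while the SkMel28 groups overlapped. It fell by 42.6% in MeWo (log2 difference -0.81, SE 0.13, adjusted p = 0.000275), and its change was 0.02 (SE 0.13, adjusted p = 0.950) in SkMel28. The difference between these changes was itself called, at -0.83 (SE 0.18, adjusted p = 0.0115), though not with spike-in scaling or without a mean-variance trend. The MeWo fall was called under all 22 alternative settings, between -0.97 and -0.54.

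Among the light chains, SLC7A5, the main exchanger for leucine and other large neutral amino acids, fell in both lines. Its MeWo control libraries read 510, 509 and 553, and those with Dox 293, 334 and 339. In SkMel28 the values were 178, 184 and 176 without Dox and 118, 116 and 150 with it. The groups did not overlap in either line. SLC7A5 fell by 0.70 (SE 0.11, adjusted p = 0.000357) in MeWo and fell by 0.49 (SE 0.11, adjusted p = 0.00924) in SkMel28. Against the control mean it fell by 38.5% and fell by 28.5%. The difference between the lines was -0.21 (SE 0.16, adjusted p = 0.438). Without SkMel28 Dox replicate 1 or replicate 2 the SkMel28 fall was between -0.44 and -0.43 and missed the threshold, with adjusted p between 0.0585 and 0.0676. Spike-in scaling ended the MeWo call, and leaving out the mean-variance trend ended the SkMel28 call.

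SLC7A6, which exchanges cationic against neutral amino acids, was the other light chain called lower in both lines, at lower levels. It read 15.8, 15.9 and 14.9 in MeWo control and 8.94, 8.34 and 7.79 with Dox, then 18.4, 17.8 and 16.5 in SkMel28 control and 10.98, 9.69 and 12.1 with Dox. In each line the 3 Dox values were below the 3 control values. It fell by 0.82 (SE 0.18, adjusted p = 0.00505) in MeWo and by 0.64 (SE 0.18, adjusted p = 0.0330) in SkMel28. The SkMel28 call rested on single libraries: it was lost without any of the 3 SkMel28 control libraries or without Dox replicate 1 or 2, at -0.68 to -0.56 and adjusted p from 0.0691 to 0.140. Both calls were lost with spike-in scaling, and the SkMel28 call also with DESeq2 and with a replicate block. SLC7A6 overlaps SLC7A6OS on the opposite strand, and since the strand used for counting is not given in the sources used here, their reads cannot be told apart where they overlap.

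SLC7A8, a light chain for neutral amino acids, was far higher in SkMel28 than in MeWo. MeWo control read 12.7, 13.6 and 16.5 and MeWo Dox 6.38, 11.8 and 7.45, while SkMel28 control read 217, 274 and 244 and SkMel28 Dox 311, 307 and 298. In MeWo Dox lay below control and in SkMel28 above, with no overlap in either. It fell by 0.71 (SE 0.18, adjusted p = 0.0103) in MeWo, and the SkMel28 value of 0.32 (SE 0.18, adjusted p = 0.290) was not called. The difference between the changes was -1.03 (SE 0.25, adjusted p = 0.0194). Leaving out MeWo control replicate 3 gave -0.61 and an adjusted p of 0.0608 in MeWo. The difference missed the threshold without that library, without SkMel28 control replicate 1 or 3 or without SkMel28 Dox replicate 1 or 2, at -1.03 to -0.93 and adjusted p from 0.05002 to 0.0607. Spike-in scaling ended both calls, a fit of MeWo alone ended the first, and leaving out the mean-variance trend ended the second.

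SLC7A11, the cystine and glutamate exchanger, was not called with Dox. Its values were 20.2, 24.1 and 22.4 in MeWo control against 11.8, 22.7 and 22.02 with Dox, and 49.0, 61.2 and 52.5 in SkMel28 control against 67.1, 73.9 and 63.2 with Dox. The low MeWo value was that of Dox replicate 1. Changes were -0.27 (SE 0.20, adjusted p = 0.385) in MeWo, or 0.01 without that library, and 0.32 (SE 0.20, adjusted p = 0.360) in SkMel28, where the groups did not overlap. SLC7A7, a further partner of SLC3A2, held at most 8 reads in a library and was not called.

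The cationic carriers work without SLC3A2. SLC7A1, the main entry route for arginine and lysine, fell in both lines. It read 248.5, 263 and 244 in MeWo control and 129, 107 and 106 with Dox, and 82.7, 72.7 and 82.4 in SkMel28 control and 40.1, 42.1 and 51.7 with Dox. Every Dox library lay under every control library of its line. SLC7A1 fell by 54.7% in MeWo (log2 difference -1.14, SE 0.13, adjusted p = 7.49e-06) and fell by 43.7% in SkMel28 (-0.82, SE 0.13, adjusted p = 0.000377), and both were called under all 22 alternatives. The difference between the lines was -0.32 (SE 0.18, adjusted p = 0.286). SLC7A2, a second arginine carrier, changed by -0.56 (SE 0.26, adjusted p = 0.146) in MeWo and by -0.09 (SE 0.26, adjusted p = 0.875) in SkMel28. SLC7A4, a relative of these by sequence, read 35.1, 31.1 and 31.4 in MeWo control and 31.3, 57.2 and 53.5 with Dox, so that Dox replicate 1 lay among the controls. Its change of 0.48 (SE 0.26, adjusted p = 0.231) was not called, and became 0.75 (adjusted p = 0.0442) without that library. In SkMel28 it held 0 to 3 reads per library, at the floor with and without Dox.

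**Figure D2:**
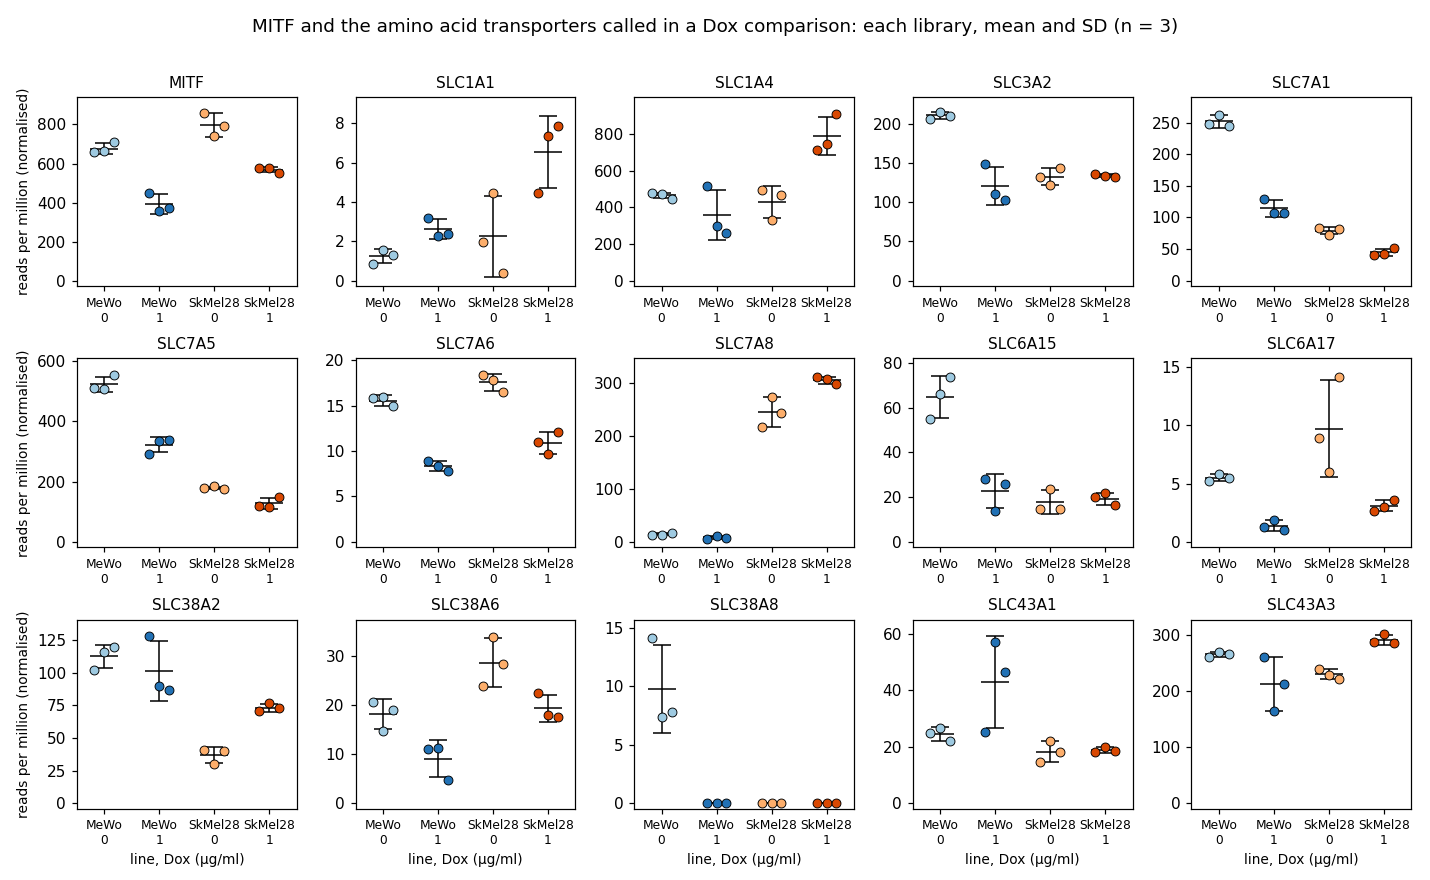
Normalised values (reads per 1000000) of MITF and of the 14 carriers called in a Dox comparison or in the difference between lines, for MeWo and SkMel28 at 0 and 1 µg/ml Dox, with 1 point per library and bars for mean and SD (n = 3). SLC7A1, SLC7A5, SLC7A6 and SLC6A17 are lower with Dox in all 3 libraries of both lines, and SLC38A8 has reads in MeWo control alone.

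The promoters of the 4 carriers that fell in both lines are printed to show what sequence lies before their starts, since MITF binds the E-box letters CACGTG or CATGTG. SLC43A1, called higher in MeWo, is set beside them as the only other carrier of those with an entry that holds CACGTG before its start. RefSeq promoters of GRCh38.p14, 250 bases before to 50 after each gene's start, were found for 21 of the 28 carriers and for 9527 of the genes tested. Each line below runs 5′ to 3′ on the gene's strand, ends before the start of both the RefSeq and the GENCODE gene, and has CACGTG in capitals.
SLC7A1: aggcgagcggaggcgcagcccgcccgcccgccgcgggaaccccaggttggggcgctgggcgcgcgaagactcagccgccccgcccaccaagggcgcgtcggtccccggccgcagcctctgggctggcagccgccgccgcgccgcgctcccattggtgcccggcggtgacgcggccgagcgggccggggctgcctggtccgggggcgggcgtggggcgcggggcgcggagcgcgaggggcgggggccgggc
SLC7A5: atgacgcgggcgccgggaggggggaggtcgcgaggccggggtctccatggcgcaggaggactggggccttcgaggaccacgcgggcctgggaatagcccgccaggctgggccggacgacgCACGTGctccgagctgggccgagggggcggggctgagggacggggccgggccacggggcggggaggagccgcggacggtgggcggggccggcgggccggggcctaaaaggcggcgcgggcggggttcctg
SLC7A6: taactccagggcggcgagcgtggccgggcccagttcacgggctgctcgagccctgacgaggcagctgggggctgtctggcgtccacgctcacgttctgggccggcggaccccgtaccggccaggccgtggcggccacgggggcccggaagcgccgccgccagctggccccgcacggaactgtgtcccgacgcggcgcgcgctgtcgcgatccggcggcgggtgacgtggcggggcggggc
SLC6A17: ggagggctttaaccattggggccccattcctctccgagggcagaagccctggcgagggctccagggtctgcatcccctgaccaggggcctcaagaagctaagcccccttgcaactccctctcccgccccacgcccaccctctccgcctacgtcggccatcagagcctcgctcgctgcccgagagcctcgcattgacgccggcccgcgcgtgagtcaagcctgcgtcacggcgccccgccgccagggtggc
SLC43A1: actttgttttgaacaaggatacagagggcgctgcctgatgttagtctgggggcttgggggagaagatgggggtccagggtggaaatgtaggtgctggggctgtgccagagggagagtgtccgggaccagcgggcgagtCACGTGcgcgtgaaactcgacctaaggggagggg
These lie at chr13:29595689-29595938 (minus strand) for SLC7A1, chr16:87869508-87869757 (minus strand) for SLC7A5, chr16:68264276-68264515 (plus strand) for SLC7A6, chr1:110150244-110150493 (plus strand) for SLC6A17 and chr11:57515781-57515952 (minus strand) for SLC43A1. CACGTG, which reads the same on both strands, begins 130 bases before the RefSeq start of SLC7A5 and 112 before that of SLC43A1, and none of the letters CACGTG or CATGTG, on either strand, is in the 300 bases of SLC7A1, SLC7A6 or SLC6A17. Over the whole 300 bases, 3 of 21 carriers held CACGTG (14.3%, SLC7A5, SLC38A7 and SLC43A1) beside 10.5% of the 9527 promoters, and 3 of 21 held CATGTG (SLC7A7, SLC38A1 and SLC38A7) beside 6.71%. The letters TGATGNAA, in which N is any base, belong to the composite site that ATF4 shares with C/EBP factors, do not overlap the E-box letters, and were in 3 of 21 (SLC3A2, SLC7A1 and SLC38A1) beside 1.51% of all promoters. In SLC3A2 and SLC7A1 they lie just after the RefSeq start, from base 38 and base 8 counted from 1 at that start. The RefSeq start used for SLC3A2 lies inside its GENCODE gene, which begins at chr11:62856004. This is also true of SLC7A7, SLC7A8, SLC38A1 and SLC43A2, among others. The short windows below show the letters in capitals, for SLC3A2 as the opposite strand's letters.
SLC3A2: aggactccTTACATCAgctcc
SLC7A1: cgcactgcTGATGAAAcctggcgc
These windows lie at chr11:62881728-62881748 (plus strand) for SLC3A2 and chr13:29595666-29595689 (minus strand) for SLC7A1. A match of letters is a description of this stretch and not a bound site.

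The SLC6 family supplied the largest called falls among the carriers with reads in every group. SLC6A15, a sodium-coupled carrier of branched-chain amino acids and proline, read 54.7, 66.1 and 73.5 in MeWo control and 28.1, 14.0 and 25.7 with Dox. In SkMel28 it read 14.8, 23.8 and 14.6 without and 19.9, 21.7 and 16.3 with Dox. MeWo Dox lay wholly below control, and the SkMel28 groups overlapped. It fell by 65.1% in MeWo (log2 difference -1.52, SE 0.24, adjusted p = 0.000275), and the SkMel28 change was 0.14 (SE 0.24, adjusted p = 0.788). The difference of -1.67 (SE 0.34, adjusted p = 0.00769) between the lines was called under all 21 alternatives, from -1.89 to -1.31.

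SLC6A17, a vesicular relative of SLC6A15 that carries neutral amino acids, fell in both lines at low levels. Its values were 5.18, 5.83 and 5.51 in MeWo control and 1.28, 1.90 and 1.02 with Dox, the last from 3 to 5 reads per library. SkMel28 control read 8.91, 6.03 and 14.2 and SkMel28 Dox 2.67, 3.01 and 3.63. The groups did not overlap in either line, although the SkMel28 controls spread widely. The fitted changes were -1.46 (SE 0.28, adjusted p = 0.00171) and -1.32 (SE 0.28, adjusted p = 0.00518), on a scale that understates changes of such low values, and both were called under all alternatives run. The difference between them was -0.14 (SE 0.40, adjusted p = 0.861).

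Other members of SLC6 were not called with Dox. SLC6A8, the creatine carrier, was near 105 in both MeWo groups, with a mean of 105 ± 2.73 (SD, n = 3) in control and 105 ± 24.6 with Dox, and at 79.4 ± 5.58 and 75.8 ± 5.18 in SkMel28. Its changes were -0.02 (SE 0.15, adjusted p = 0.945), or 0.18 without MeWo Dox replicate 1, and -0.07 (SE 0.15, adjusted p = 0.847). SLC6A6, the taurine carrier, was at 4.18, 4.13 and 4.60 in SkMel28 control and 7.13, 9.36 and 5.74 with Dox, without overlap, and its change of 0.64 (SE 0.23, adjusted p = 0.0855) was not called. SLC6A12, a betaine and GABA carrier, held at most 8 reads in any library.

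In SkMel28 the carriers that rose were SLC1A4, SLC38A2 and SLC1A1. SLC1A4, a sodium-dependent exchanger of alanine, serine and cysteine, read 493, 330 and 464 in control and 714, 747 and 909 with Dox. In MeWo it read 477, 470 and 447 in control and 515, 299 and 259 with Dox. SkMel28 Dox lay wholly above control, whereas in MeWo Dox replicate 1 lay above all controls and replicates 2 and 3 below them. It rose by 0.89 (SE 0.20, adjusted p = 0.00673) in SkMel28, and the MeWo change was -0.44 (SE 0.20, adjusted p = 0.141), or -0.74 (adjusted p = 0.000487) without MeWo Dox replicate 1. The difference between the lines, -1.33 (SE 0.28, adjusted p = 0.00904), was called under all 21 alternatives, from -1.63 to -0.96.

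SLC38A2, the sodium-coupled carrier of glutamine and alanine that answers to amino acid shortage, nearly doubled in SkMel28. It read 40.7, 30.2 and 40.2 in control and 70.4, 76.5 and 72.8 with Dox. MeWo control held 103, 116 and 120 and MeWo Dox 128, 90.2 and 86.7. Again the SkMel28 groups were apart, and in MeWo Dox replicate 1 lay above the controls and the others below. The SkMel28 rise was 0.98 (SE 0.16, adjusted p = 0.000490), called under all 22 alternatives, and the MeWo change was -0.17 (SE 0.16, adjusted p = 0.511), which became 0.10 with spike-in scaling. By library, MeWo Dox replicate 1 lay at 0.18 from the control mean, and replicates 2 and 3 at -0.32 and -0.37. The MeWo change was called under no alternative. The difference of -1.15 (SE 0.22, adjusted p = 0.00522) was called in all alternatives but spike-in scaling.

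SLC1A1, a glutamate, aspartate and cysteine carrier, had few reads. MeWo control held 3, 4 and 4 and MeWo Dox 10, 6 and 7, without overlap, for a change of 0.69 (SE 0.38, adjusted p = 0.234). SkMel28 control held 7, 14 and 1 reads and SkMel28 Dox 15, 22 and 26, or 1.95, 4.44 and 0.383 against 4.45, 7.35 and 7.86 in normalised values. The lowest Dox library lay just above the highest control library. The SkMel28 rise of 1.39 (SE 0.38, adjusted p = 0.0256) was lost without SkMel28 control replicate 1 or 3 or Dox replicate 2 or 3, at 0.88 to 1.43 and adjusted p from 0.0632 to 0.145, and with DESeq2, a pseudocount of 0.1 or a fit of SkMel28 alone. SLC1A5, the glutamine exchanger of the plasma membrane, was not called in either line. It read 168, 151 and 135 in MeWo control and 133, 255 and 180 with Dox, for a change of 0.28 (SE 0.18, adjusted p = 0.302), which was 0.50 (adjusted p = 0.00938) without MeWo Dox replicate 1. In SkMel28 all 3 Dox libraries, at 182, 184 and 186, lay below the controls at 211, 224 and 274, and the change was -0.35 (SE 0.18, adjusted p = 0.240).

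SLC38A8, a sodium-coupled glutamine carrier, went from reads in every MeWo control library to none with Dox. The controls held 49, 19 and 24 reads, or 14.1, 7.38 and 7.77, and the 3 MeWo Dox libraries 0 reads each. SkMel28 held 0 reads in all 6 libraries. Against a floor of 3 reads per library, SLC38A8 was at least 9.41-fold lower with Dox in MeWo, and the fit gave -3.37 (SE 0.27, adjusted p = 1.65e-07), a value that depends on the pseudocount. It entered the table through MeWo control alone, so its presence among the genes tested already required that group to stand out. The called difference between lines is the same -3.37 (SE 0.38, adjusted p = 6.93e-05), since nothing was read in SkMel28, and edgeR on whole reads did not call it (adjusted p = 0.9999).

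Of the other SLC38 genes, SLC38A6 fell in MeWo. It read 20.7, 14.8 and 19.1 in control and 11.2, 11.4 and 4.74 with Dox, without overlap. The change was -0.998 (SE 0.26, adjusted p = 0.0148), and it missed the threshold without MeWo control replicate 1 or 3 or Dox replicate 3, at -0.96 to -0.63 and adjusted p from 0.0577 to 0.0789, and in a fit of MeWo alone. In SkMel28 the groups did not overlap either, at 23.9, 33.95 and 28.4 against 22.6, 18.1 and 17.5, and the change was -0.54 (SE 0.26, adjusted p = 0.223). SLC38A6 overlaps TRMT5 on the opposite strand. SLC38A7, a lysosomal glutamine exporter, stood at 14.1, 14.0 and 13.6 in MeWo control and 12.1, 7.20 and 6.10 with Dox, and its change of -0.70 (SE 0.26, adjusted p = 0.0722) became -0.97 (adjusted p = 0.00731) without Dox replicate 1. SLC38A10 was at 152 ± 11.8 (SD, n = 3) in MeWo control and 149 ± 13.7 with Dox, and at 76.0 ± 4.13 and 69.7 ± 4.41 in SkMel28, for changes of -0.03 (SE 0.12, adjusted p = 0.903) and -0.12 (SE 0.12, adjusted p = 0.594). SLC38A1, a relative of SLC38A2, held at most 6 reads in any library.

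The SLC43 family carries large neutral amino acids by facilitated diffusion, apart from SLC43A3, which is known as a purine base carrier. SLC43A1 was the carrier called higher in MeWo, with the adjusted p nearest to the threshold. Control libraries read 24.8, 26.8 and 22.02 and Dox libraries 25.2, 57.2 and 46.4, so that Dox replicate 1 lay among the controls. The change was 0.71 (SE 0.24, adjusted p = 0.0496). It was 1.05 (adjusted p = 0.000326) without MeWo Dox replicate 1, and it missed the threshold without any 1 of the other 11 libraries, at 0.47 to 0.77 and adjusted p from 0.0504 to 0.231. It was also lost with a pseudocount of 0.1, without a mean-variance trend and in a fit of MeWo alone. In SkMel28 SLC43A1 changed by 0.06 (SE 0.24, adjusted p = 0.925).

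SLC43A3 was called in neither line and still differed between them. MeWo control read 260, 270 and 267 and MeWo Dox 261, 165 and 212, and SkMel28 control read 240, 228 and 222 and SkMel28 Dox 287, 303 and 286. The MeWo change was -0.34 (SE 0.13, adjusted p = 0.0836), or -0.50 (adjusted p = 0.00114) without Dox replicate 1, and the SkMel28 change was 0.34 (SE 0.13, adjusted p = 0.114), with no overlap in SkMel28. The difference of -0.69 (SE 0.19, adjusted p = 0.0342) missed the threshold without any 1 library other than MeWo Dox replicate 1, at -0.72 to -0.52 and adjusted p from 0.0525 to 0.0917. Spike-in scaling, the replicate block and leaving out the mean-variance trend also ended it. SLC43A2, a leucine carrier, held 2, 0 and 5 reads in SkMel28 control and 9 in each SkMel28 Dox library, and its change of 1.20 (SE 0.42, adjusted p = 0.0844) was not called.

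The SLC36 family includes proton-coupled carriers of lysosomes and other membranes, and 2 of its genes were listed. SLC36A1 read 12.1, 15.2 and 13.3 in MeWo control and 13.7, 5.69 and 10.5 with Dox, and 11.97, 15.2 and 14.6 in SkMel28 control and 21.1, 22.4 and 25.7 with Dox. The SkMel28 groups did not overlap. Its changes of -0.47 (SE 0.25, adjusted p = 0.209) and 0.69 (SE 0.25, adjusted p = 0.0878) were not called, and their difference of -1.16 (SE 0.35, adjusted p = 0.0521) lay just outside the threshold. Without MeWo Dox replicate 1 all 3 were called, at -0.72 (adjusted p = 0.0269), 0.69 (adjusted p = 0.0320) and -1.41 (adjusted p = 0.00331). SLC36A4 stayed under a value of 5 in every library and was not called.

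In the test of the difference between the lines, 7 of 28 carriers changed differently with Dox in MeWo and SkMel28 (25%, against 7.09% of all genes). All 7 were more negative in MeWo (25%, against 3.38%), and 0 of 28 were more positive (against 3.71%). For SLC38A8 this direction was fixed by its entry into the table through MeWo control alone, which leaves 6 others. The 7 were SLC38A8 and, as the 6 others, SLC1A4, SLC3A2, SLC7A8, SLC6A15, SLC38A2 and SLC43A3. For SLC3A2, SLC7A8, SLC6A15 and SLC38A8 the MeWo fall was the called change, for SLC1A4 and SLC38A2 the SkMel28 rise, and for SLC43A3 neither. With spike-in scaling 4 were called. SLC1A4, SLC6A15 and SLC38A8, 3 of the 7, were more negative in MeWo, and SLC1A5 was more positive. That scaling called 1518 of all 12616 genes, against 894 in the main fit. Without a mean-variance trend 4 were called, all more negative and SLC38A8 among them, beside 554 of all genes. Without MeWo Dox replicate 1 it was 13, of which 4 were more positive and 9 more negative in MeWo. Over all genes 3115 were called in that fit, so the rise was not confined to the carriers. MeWo Dox replicate 1 had the smallest shift from the control mean of the 3 Dox libraries in 16 of 28 carriers (57.1%), beside 48.7% of all genes.

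**Figure D3:**
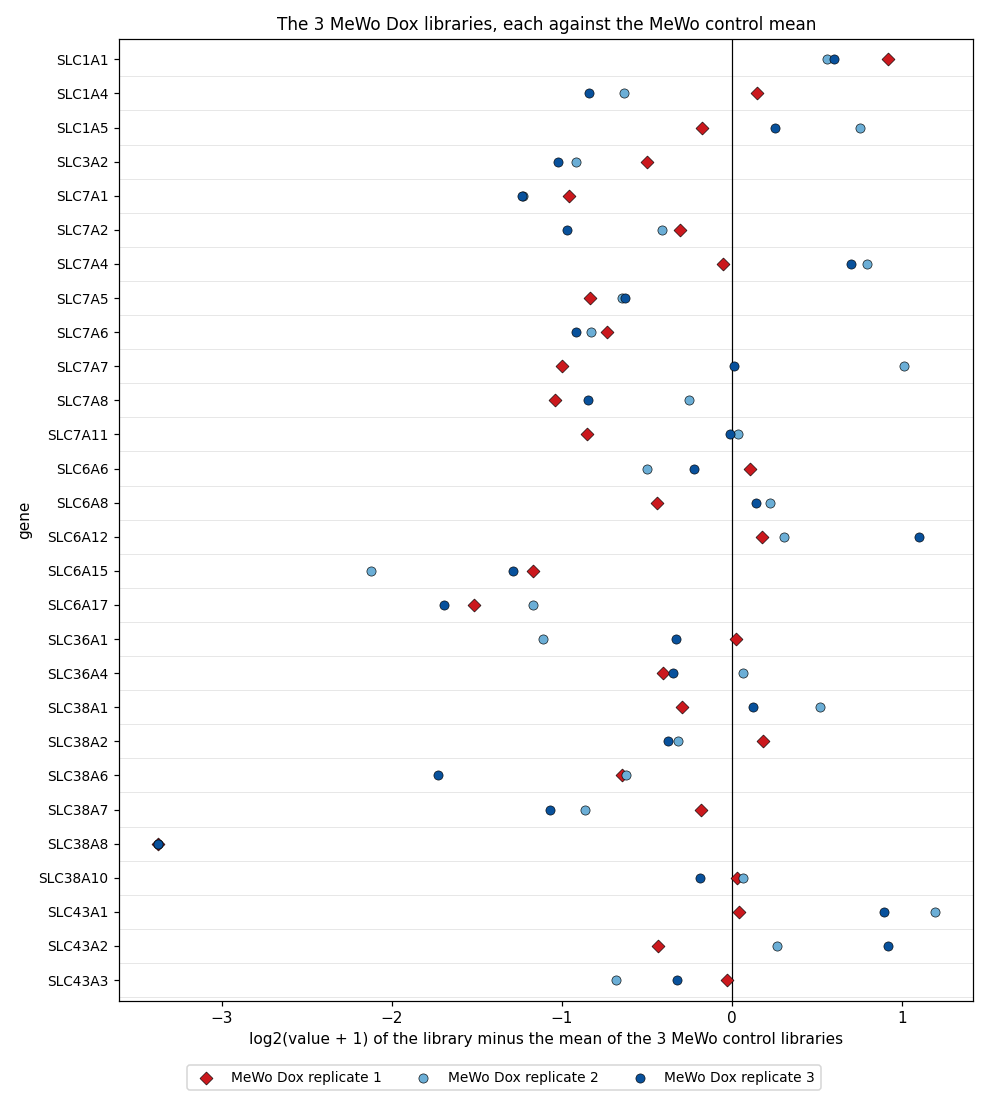
Shift of each MeWo Dox library from the mean of the 3 MeWo control libraries, as the difference of log2(value + 1), for the 28 carriers (rows), with replicate 1 as red diamonds. Replicate 1 lies at 0.15 for SLC1A4, -0.05 for SLC7A4, 0.04 for SLC43A1 and -0.03 for SLC43A3, apart from replicates 2 and 3, and on their side of 0 for SLC7A1 and SLC7A6.

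Without Dox the lines already differed, in a share of the carriers near that of all genes. SkMel28 control and MeWo control differed in 14 of 28 (50%, against 51.4% of all genes), with 3 higher in SkMel28 (10.7%, against 26.6%) and 11 lower (39.3%, against 24.8%). The 11 include SLC7A4 and SLC38A8, which entered the table through MeWo libraries alone, so their direction was fixed by that entry. SLC7A8 was 17.2-fold higher in SkMel28, at 245 ± 28.2 (SD, n = 3) against 14.3 ± 2.01. SLC7A11 was at 54.3 ± 6.31 in SkMel28 against 22.2 ± 1.97 (log2 difference 1.25, SE 0.20, adjusted p = 5.72e-05), and SLC1A5 at 236 ± 33.5 against 151 ± 16.4 (0.64, SE 0.18, adjusted p = 0.00558). No control library of 1 line overlapped the other for any of these 3.

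On the MeWo side, SLC7A4 and SLC38A8 were read in MeWo and at the floor in SkMel28. SLC7A4 was at least 33.2-fold lower in SkMel28 control, with 122, 80 and 97 reads in MeWo against 3, 1 and 1. SLC38A8 was at least 9.96-fold lower there. Both genes entered the table through MeWo libraries alone, which fixed this direction. SLC6A15 was at 17.7 ± 5.28 in SkMel28 against 64.8 ± 9.47 in MeWo (log2 difference -1.84, SE 0.24, adjusted p = 6.56e-06), and SLC6A6 at 4.30 ± 0.260 against 15.97 ± 1.12 (-1.68, SE 0.23, adjusted p = 9.55e-06). SLC7A1 was at 79.3 ± 5.70 against 252 ± 9.65 (-1.66, SE 0.13, adjusted p = 9.58e-09). SLC7A1 in MeWo Dox, at 114 on average, still lay above SkMel28 control. SLC38A2, SLC7A5, SLC7A2, SLC38A10, SLC3A2 and SLC6A8 were also lower in SkMel28, by 1.59, 1.54, 1.44, 0.99, 0.67 and 0.40 on the log2 scale. The last, SLC6A8, was lost with DESeq2, with spike-in scaling, without a mean-variance trend and without any 1 of 5 control libraries, all but SkMel28 control replicate 2, at -0.42 to -0.35.

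**Figure D4:**
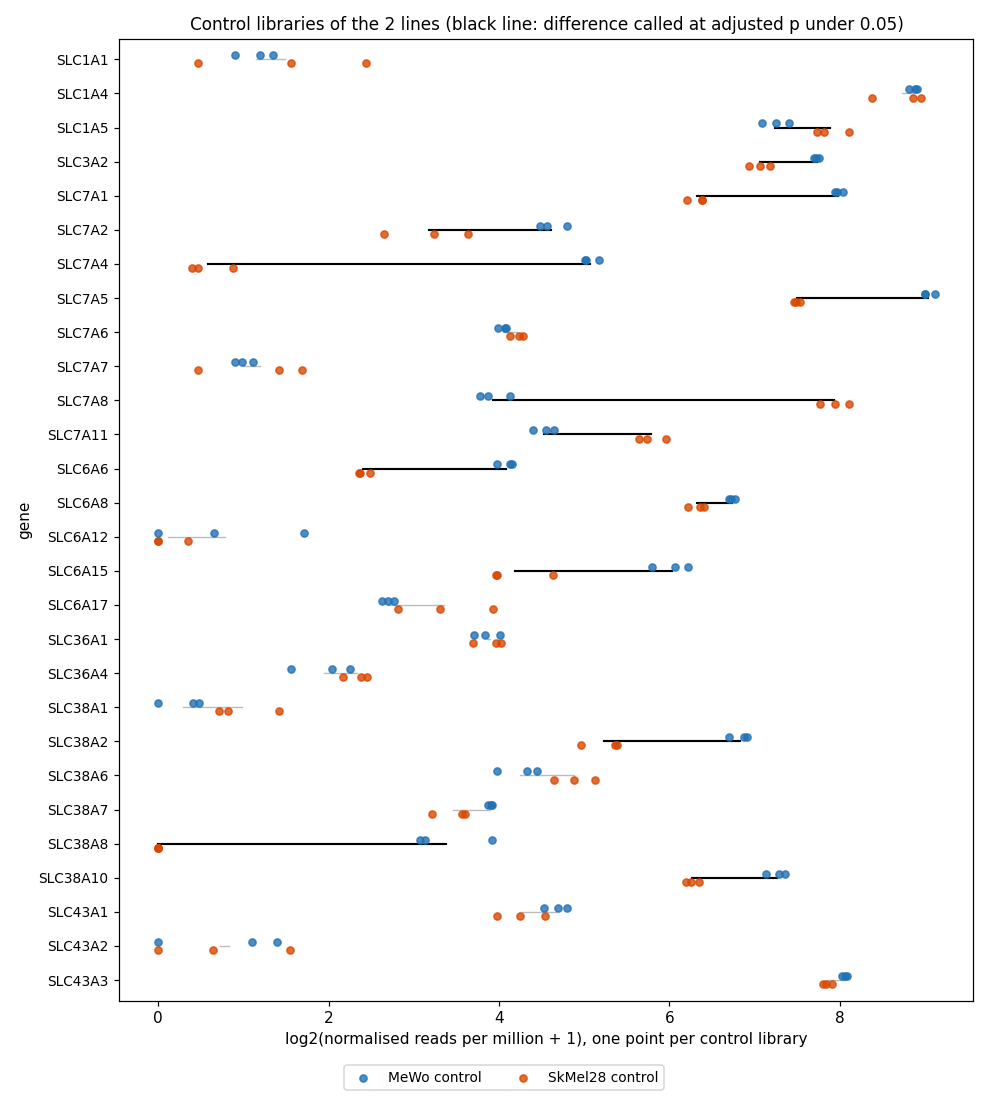
Levels of the 28 carriers (rows) in the 3 control libraries of MeWo (blue) and of SkMel28 (orange), as log2(normalised value + 1), joined by a black line where the lines differ at an adjusted p under 0.05. SLC7A8 lies far to the right in SkMel28, at 245 against 14.3, and SLC7A4 and SLC38A8 far to the left, at or near 0.

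Other genes of amino acid transport and use were taken from 3 lists, whose counts stand beside the shares of all genes given above. Among further amino acid carriers, 19 of 30 were listed, of which 4 were called in MeWo (21.1%) and 2 in SkMel28 (10.5%). SLC15A4, a lysosomal histidine and peptide carrier, read 162, 157 and 174 in MeWo control and 91.6, 60.6 and 69.4 with Dox, and 113, 118 and 117 in SkMel28 control and 86.7, 75.2 and 90.7 with Dox. It fell by 1.16 (SE 0.14, adjusted p = 1.53e-05) in MeWo and by 0.46 (SE 0.14, adjusted p = 0.0423) in SkMel28, the latter lost with spike-in scaling and without any 1 of 9 libraries, at -0.52 to -0.38. SLC16A10, an aromatic amino acid carrier, fell by 1.20 (SE 0.32, adjusted p = 0.0158) in MeWo, and SLC17A5, an exporter of sialic acid from lysosomes, fell by 0.61 (SE 0.18, adjusted p = 0.0345) in SkMel28. The first was lost without MeWo control replicate 1 or Dox replicate 3, at -1.004 to -0.88, and the second with spike-in scaling and without SkMel28 control replicate 2 or 3 or Dox replicate 2 or 3, at -0.60 to -0.50. The mitochondrial serine carrier SFXN1 rose by 0.67 (SE 0.15, adjusted p = 0.00503) in MeWo. SLC25A29, which carries basic amino acids into mitochondria, rose by 0.70 (SE 0.19, adjusted p = 0.0184) there, and this was lost without MeWo control replicate 2 or 3 or Dox replicate 2 or 3, at 0.57 to 0.70. A fit of MeWo alone called neither of these nor SLC16A10.

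Of the enzymes that make and break down amino acids, 26 of 31 were listed. In MeWo 9 were called (34.6%), 5 higher and 4 lower, and in SkMel28 2 (7.69%), 1 in each direction. PHGDH, the first enzyme of serine synthesis, read 76.0, 69.9 and 77.1 in MeWo control and 36.1, 58.8 and 33.9 with Dox, a change of -0.82 (SE 0.16, adjusted p = 0.00214). BCKDHA, a subunit of the complex that breaks down branched-chain keto acids, rose in MeWo by 0.79 (SE 0.19, adjusted p = 0.00739). GLUL, which makes glutamine, fell by 0.97 (SE 0.19, adjusted p = 0.00298) in SkMel28, from 4.18, 3.49 and 2.68 to 1.19, 1.34 and 1.21, and was not called with a pseudocount of 5. A fit of MeWo alone called neither PHGDH nor BCKDHA.

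The amino acid response list, of ATF4, the kinase EIF2AK4 that acts before it, and genes linked to the response, was listed in full, 15 of 15. In each line 5 were called (33.3%), 4 higher and 1 lower. ASNS, asparagine synthetase, was higher in both lines. It read 46.7, 39.2 and 50.2 in MeWo control and 60.01, 97.0 and 75.9 with Dox, and 30.1, 37.4 and 31.8 in SkMel28 control and 50.2, 46.1 and 49.6 with Dox. Its rises were 0.74 (SE 0.17, adjusted p = 0.00535) and 0.55 (SE 0.17, adjusted p = 0.0450), the second lost without any 1 of 9 libraries, at 0.48 to 0.58. ATF5 rose by 1.05 (SE 0.24, adjusted p = 0.00605) and 0.84 (SE 0.24, adjusted p = 0.0316), the second lost without any of the SkMel28 control libraries or Dox replicate 1 or 3, at 0.73 to 0.87. ATF4 itself rose by 0.44 (SE 0.13, adjusted p = 0.0309) in SkMel28, where the call was lost without control replicate 2 or 3 or Dox replicate 3, at 0.32 to 0.48, and its MeWo change was 0.18 (SE 0.13, adjusted p = 0.350). A fit of MeWo alone called neither ASNS nor ATF5 there, and spike-in scaling ended the SkMel28 calls of ASNS, ATF5 and ATF4.

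Within this list the difference between the lines was called for DDIT4 and CEBPB. DDIT4, an inhibitor of mTORC1 signalling, read 27.4, 32.3 and 28.2 in MeWo control and 79.2, 171 and 143 with Dox, a rise of 2.06 (SE 0.22, adjusted p = 3.45e-06), against -0.32 (SE 0.22, adjusted p = 0.406) in SkMel28. The difference of 2.38 (SE 0.30, adjusted p = 0.000183) was called under all 21 alternatives. CHAC1, which degrades glutathione, rose by 0.93 (SE 0.28, adjusted p = 0.0332) in MeWo, lost without MeWo control replicate 1 or 2 or Dox replicate 1 or 2, at 0.69 to 0.99. CEBPB, a partner of ATF4, fell by 0.95 (SE 0.14, adjusted p = 0.000112) in MeWo, and its difference between the lines, -0.69 (SE 0.20, adjusted p = 0.0415), was lost without any 1 library other than MeWo Dox replicate 1, at -0.73 to -0.57. ATF3, a stress-induced factor, was at the floor in SkMel28 control and at least 4.12-fold higher with Dox (adjusted p = 0.00119). TRIB3, which restrains ATF4, fell by 0.79 (SE 0.23, adjusted p = 0.0327) in SkMel28, lost without any 1 of the 6 SkMel28 libraries, at -0.83 to -0.75. The difference between the lines was not called for CHAC1 (adjusted p = 0.241), ATF3 (adjusted p = 0.176) or TRIB3 (adjusted p = 0.0680). In both lines ASNS and ATF5 were called higher and the carriers SLC7A1 and SLC7A5 lower.

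**Figure D5:**
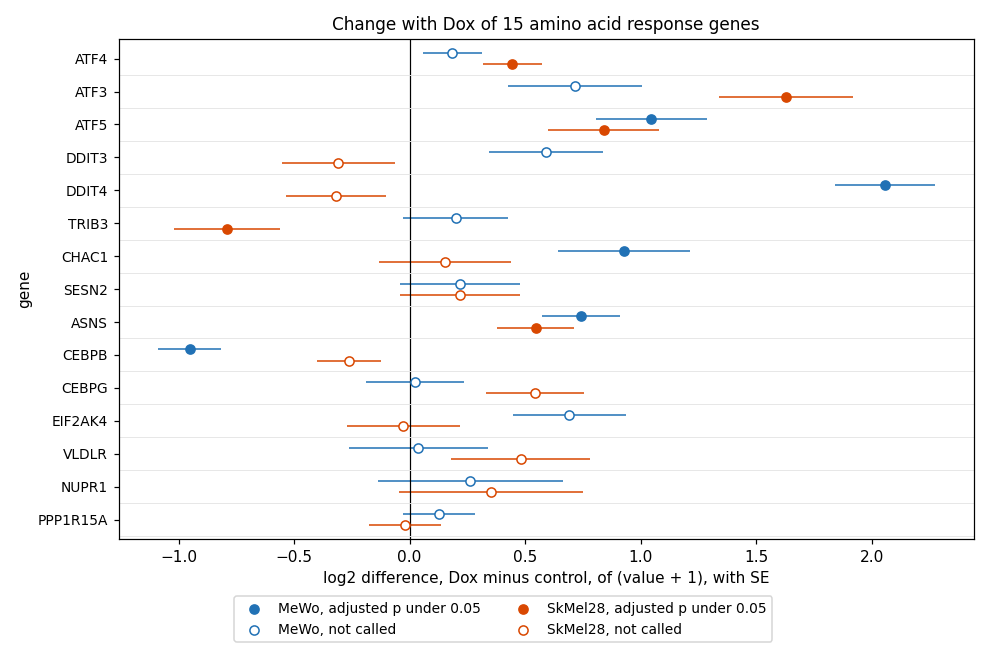
Change with Dox of the 15 amino acid response genes (rows), as the log2 difference of value + 1 with its SE, in MeWo (blue) and SkMel28 (orange), filled where called. ASNS and ATF5 are filled above 0 in both lines, DDIT4 stands at 2.06 in MeWo, and CEBPB in MeWo and TRIB3 in SkMel28 are filled below 0.

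Of the 28 carriers, 14 were called with Dox in at least 1 line or in the difference between lines, and 14 were not. A value of 1 or more in all 12 libraries was found for 21. The remaining 7, SLC1A1, SLC7A4, SLC7A7, SLC6A12, SLC38A1, SLC38A8 and SLC43A2, rest on few reads in at least 1 line. Every listed gene reached a value of 1 in 3 or more libraries, and a change of a carrier below this limit was not detectable at this depth.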

How the data were processed

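Transcript 3′ ends were sequenced by QuantSeq Forward in 12 libraries, 3 in each of the 4 groups set by the labels. Deposited values are a signal scale: reads per gene that the authors scaled with edgeR to TMM-normalised reads per 1000000. The submitters' processing notes name FastQC 0.11.7, cutadapt 2.8, STAR 2.5.1b and hg38. The counting tool, annotation, strand setting and treatment of reads that map to several places are not given in the sources used here. Whole reads were recovered for 100% of values in every library, within 0.01 of 1 read.

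The 67 spike-in features were set apart and 12616 genes tested with limma 3.58.1 in R 4.3.3, on log2(value + 1) with a mean-variance trend, 4 group means over all 12 libraries, two-sided, with Benjamini-Hochberg adjustment over all genes of a contrast. Standard errors are those of the fit. The method was checked on data simulated with the same spread setting for all genes. The changed genes were drawn from those with more reads, and no library was made to stand apart. The check therefore does not cover carriers with few reads or a library such as MeWo Dox replicate 1. The floor is 3 reads per library, and it covers counting error only. edgeR 4.0.16 on whole reads called 2043 genes in MeWo, where limma called 2107. Other alternatives were DESeq2 1.42.0, median-ratio and spike-in scaling, pseudocounts of 0.1 and 5, a stricter filter of a value of 5 in 3 libraries, no trend, a replicate block, each line alone, and leaving out each library.

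Named with values were MITF, members called in a Dox contrast or the interaction, uncalled members with a mean of at least 50 in a group, and the 5 highest and 5 lowest called differences between the control groups with a mean of at least 10. Further members and list genes, and libraries singled out, were chosen after their values were seen. The rule for members reads symbols only, but it and the lists were chosen with earlier results of these data known. Same-numbered control and Dox libraries had deviations correlated at -0.30, -0.07 and 0.05 in MeWo and -0.10, 0.12 and 0.29 in SkMel28, so the numbers were not taken to pair samples. SLC7A5, SLC6A8 and SLC6A6 have annotated pseudogene copies that are not listed, and reads could be shared with them. Some genes of the comparison lists and their values are not reported here.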

Additional observations from a re-analysis of the deposited data

Results flagged for a closer look

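For 7 carriers the change with Dox differed between the lines by the test of that difference, given as the MeWo change minus the SkMel28 change on the log2 scale with the limma adjusted p. The difference was -1.33 (adjusted p = 0.00904) for SLC1A4, -0.83 (adjusted p = 0.0115) for SLC3A2 and -1.03 (adjusted p = 0.0194) for SLC7A8. It was -1.67 (adjusted p = 0.00769) for SLC6A15, -1.15 (adjusted p = 0.00522) for SLC38A2 and -0.69 (adjusted p = 0.0342) for SLC43A3. For SLC38A8 it was -3.37 (adjusted p = 6.93e-05), with no reads in SkMel28. Its direction was fixed by its entry into the table through MeWo control alone. Groups of 3 libraries are too small for the test of single outlying samples, and none was made.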

How the results depend on the processing

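Of 24 calls of carriers with Dox or between the lines, 11 held under every alternative run. The 24 include both SLC38A8 calls, and the 11 include its fall in MeWo. Their direction was fixed by its entry into the table through MeWo control alone. Over all alternatives the 24 calls gave 519 values, of which 66 were lost and 0 changed sign. Among uncalled values, here with the comparison of the controls included, 54 changed sign or moved to or from 0. The largest of them was 0.34 on the log2 scale before the change, for SLC1A1 between the controls. Of the differences between the lines, 4 carriers were called with spike-in scaling and 4 without the mean-variance trend, against 7, and the cause was not tested. SLC38A8 is among the carriers called in each of these settings. Over all genes these settings called 1518 and 554 differences, against 894 in the main fit. With 1 library left out, the number of carriers called ran from 7 to 16 in MeWo, 4 to 10 in SkMel28, 5 to 13 between the lines' changes and 13 to 16 between the controls, in fits with fewer samples. Over all genes it ran from 1281 to 3913, 784 to 2042, 449 to 3115 and 5685 to 7145, in the same order. With the replicate block the counts of carriers were 10, 6, 6 and 14, beside 1821, 1070, 641 and 6313 of all genes. The replicate numbers do not pair the samples. A fit of each line alone cannot give the comparisons that use both lines. Depth limits carriers under about 3 reads per library.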
